A study of Homo sapiens with 2 samples.

Results

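The genes of the heterogeneous nuclear ribonucleoproteins (hnRNPs) and of the serine and arginine rich splicing factors (SR proteins, SRSF) were examined in Huh7 cells, a human hepatocellular carcinoma cell line. Members were the rows of the deposited table whose gene name starts with HNRNP or is SRSF followed by a number, without those described as a pseudogene or antisense gene. This rule gave 39 genes of the 61541 in the table, of which 27 were hnRNP genes and 12 were SRSF genes. One library came from cells given a control siRNA (si-NC) and the other from cells given siRNA against BRF2 (si-BRF2), both by transfection of the same line. The sources used here do not give the siRNA against BRF2 that was used for sequencing. With 1 library per condition, no difference has a replicate check.

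hnRNPs and SR proteins bind pre-mRNA and guide the choice of splice sites. SR proteins carry RNA recognition motifs and a tail of arginine and serine repeats. They mostly promote the use of nearby exons, and SR protein kinases phosphorylate them. Many hnRNPs counter this by blocking splice sites, and several also act in mRNA export, stability and translation. BRF2 recruits RNA polymerase III to promoters of the U6 snRNA type. U6 is the RNA at the catalytic center of the spliceosome.

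The table gave estimated reads per gene, which summed to 22852648 in si-NC and 22089016 in si-BRF2, and TPM, a level scaled for transcript length. Changes are ratios of CPM (reads on the gene scaled to the total on all genes), si-BRF2 over si-NC, with a 95% Clopper-Pearson interval, which covers counting error only. As a check of the labels, BRF2 went from 1281 reads in si-NC to 364 in si-BRF2 (log2 ratio -1.77, -1.94 to -1.60), 70.6% lower. All 10 hepatoma markers listed had reads, among them ALB with TPM of 3957 and 4077 in si-NC and si-BRF2. The 6 markers of blood and endothelial cells had 415 and 405 reads in all, of which CD68 had 235 and 244, CD14 112 and 94, and PECAM1 60 and 63, while PTPRC, CDH5 and VWF had 5 or fewer in each library. Change rose with gene length over protein-coding genes, and the median log2 fold change of protein-coding genes was 0.14. The TMM scaling of edgeR moves every log2 fold change by -0.22.

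Scaled to total reads, no hnRNP or SR gene changed by a fold of 2 or more. SRSF9 passed it with TMM scaling (-1.06) and SRSF11 by TPM (1.09). Of the 35 members with reads, 0 were higher and 0 were lower at this threshold, where 9.4% of all genes with reads were higher and 1.01% were lower. The 2 members that came nearest were both SR genes and lay on opposite sides, SRSF11 above and SRSF9 below. Counting error alone left 8 members higher, 18 lower and 9 not separated from 0. Over all genes with reads, 28.9% were higher and 13.8% lower beyond counting error, also scaled to total reads. With TMM scaling the split of the members was 3 higher and 26 lower. The shares of all genes under TMM scaling are not given here, so this split has no background. Most members are deeply covered, so the 31 members with at least 1000 reads over both libraries were also set beside the 7291 protein-coding genes with as many. Among these members 22.6% were higher and 58.1% lower, against 44.0% and 36.2% of those genes. Past the fold threshold were 2.96% of those genes on the higher side and 0.0823% on the lower side. These values compare 2 libraries, and in a bulk library fewer cells of a type and less RNA per cell cannot be told apart.

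**Figure D1:**
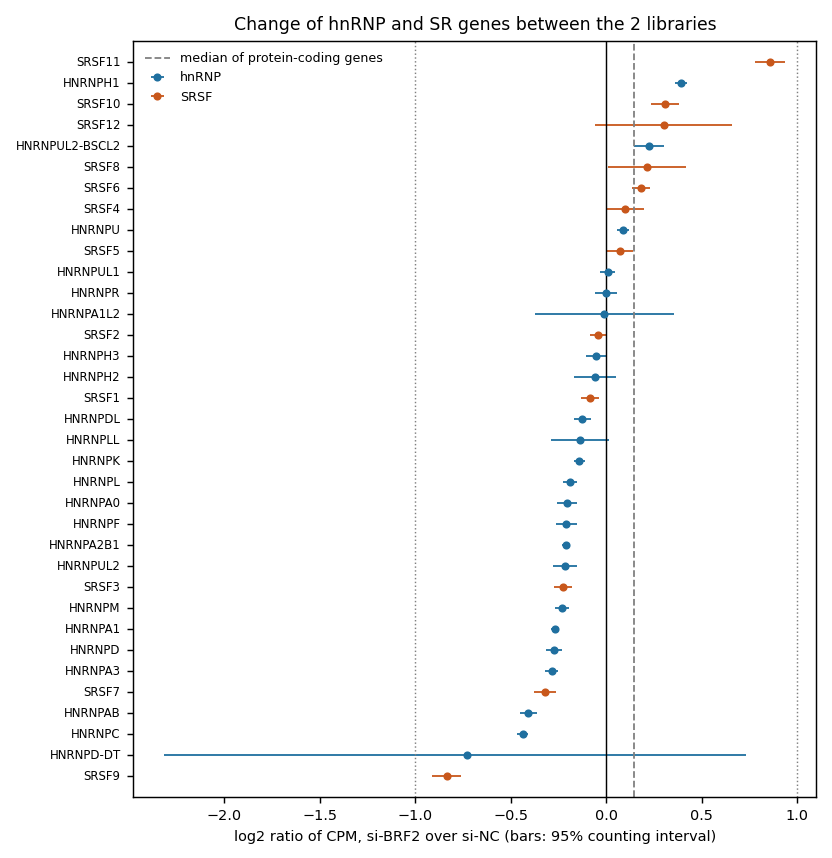
The log2 ratio of CPM of each of the 35 members with reads (x axis, si-BRF2 over si-NC) is shown with its 95% counting interval, hnRNP genes in blue and SRSF genes in orange, with dotted lines at a fold of 2 and a dashed line at the median of protein-coding genes. SRSF11 (0.86) and SRSF9 (-0.83) lie at the ends, and 24 of the 35 points lie below 0.

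The hnRNP genes were mostly a little lower in si-BRF2. Their median log2 fold change was -0.19 over 23 genes with reads, of which 3 were higher, 13 lower and 7 within counting error. The A/B and D group holds HNRNPA1 and HNRNPA2B1, abundant hnRNPs that coat nascent transcripts. All 8 of its genes had values below 0, and 7 were lower beyond counting error. Of protein-coding genes with at least 1000 reads 36.2% were lower, and of those with any read 20.8%. The grouping was made after values were seen. Relative to genes of like implied effective length (the length implied by reads over TPM), 6 of the 8 lay below 0. HNRNPA1, which represses exons and shuttles between nucleus and cytoplasm, had 45751 reads in si-NC and 36771 in si-BRF2, or 2002 and 1665 CPM (log2 fold change -0.27, -0.29 to -0.25). HNRNPA2B1, its close relative and a binder of RNA sorting signals, had 1540 and 1332 CPM (-0.21, -0.23 to -0.19). HNRNPA3, another A-type protein, had 710 and 583 CPM (-0.28) and HNRNPAB, the CArG-box binding factor A, had 440 and 332 CPM (-0.41, -0.45 to -0.36). These 4 genes were all lower in si-BRF2, HNRNPAB by the most. HNRNPD, or AUF1, which binds AU-rich elements, had 428 and 354 CPM (-0.27). HNRNPDL, its paralog, had 359 and 330 CPM (-0.12) and HNRNPA0 had 304 and 264 CPM (-0.20). All of these lay below 0. HNRNPA1L2, a copy of HNRNPA1 without introns, had 130 and 125 reads (-0.01, -0.37 to 0.36), a difference not detectable at this depth. It is nearly identical to HNRNPA1 and shares its strand with another annotated transcript, so its level is uncertain. HNRNPA2B1 overlaps exons of CBX3 on the opposite strand.

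HNRNPC, which forms the core particle on pre-mRNA and binds uridine tracts, had the lowest value of the hnRNP genes with at least 100 reads. It had 22416 and 16008 reads, or 981 and 725 CPM (log2 fold change -0.44, -0.47 to -0.41). Its 4 paralogs HNRNPCL1, HNRNPCL2, HNRNPCL3 and HNRNPCL4 had 0 reads in both libraries. With no read seen, levels of up to 3 reads are still possible (0.131 CPM in si-NC and 0.136 CPM in si-BRF2). HNRNPC was thus the only member of its group with reads assigned to it. How reads that match several genes were treated is not given, so the levels of the 4 paralogs are uncertain.

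The F/H group, which binds runs of guanines, was divided. HNRNPH1 was the most raised hnRNP gene, with 13868 reads in si-NC and 17587 in si-BRF2, or 607 and 796 CPM. This is 31.2% higher, a log2 fold change of 0.39 (0.36 to 0.42). Its locus is on the minus strand of chromosome 5 (GRCh38, 179614178 to 179634784), and 50 transcripts of it are annotated in GENCODE release 29. HNRNPF had 265 and 229 CPM (-0.21, -0.26 to -0.15), so the 2 genes of this group with changes beyond counting error moved in opposite directions. HNRNPH2 and HNRNPH3 had log2 fold changes of -0.06 and -0.05 with intervals that include 0. HNRNPH2 shares its strand with the readthrough gene RPL36A-HNRNPH2, so its reads are uncertain.

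The remaining hnRNP genes with at least 100 reads lay between -0.23 and 0.22. HNRNPK, which binds cytosine-rich RNA and DNA, had 923 and 837 CPM (-0.14, -0.17 to -0.11). HNRNPM, a regulator of alternative exons, had 603 and 514 CPM (-0.23) and HNRNPL, a binder of CA repeats, had 558 and 489 CPM (-0.19). These 3 were lower beyond counting error. HNRNPLL, a paralog of HNRNPL, had 769 and 677 reads (-0.13, -0.29 to 0.02). HNRNPR, a relative of SYNCRIP, had 230.4 and 230.3 CPM, with an interval from -0.06 to 0.06. HNRNPU, a scaffold-attachment protein of the nucleus, had 786 and 836 CPM (0.09, 0.06 to 0.12), while its relative HNRNPUL2 had 197 and 170 CPM (-0.21, -0.28 to -0.15). HNRNPUL1 had 439 and 442 CPM (0.01, -0.03 to 0.05). HNRNPU and HNRNPUL1 overlap exons of COX20 and TGFB1 on the opposite strand. The readthrough gene HNRNPUL2-BSCL2 had 106 and 124 CPM (0.22). It shares its strand with HNRNPUL2 and BSCL2, and the split of reads among the 3 genes is uncertain. HNRNPD-DT, a noncoding RNA that starts opposite HNRNPD, had 12 and 7 reads, which is too few to place its change (-2.31 to 0.73).

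The SRSF genes spread more widely, with a median log2 fold change of 0.09 over 12 genes, 5 of them higher, 5 lower and 2 within counting error. Of protein-coding genes with any read, 36.9% were higher and 20.8% lower. SRSF9, or SRp30c, a short SR protein, was the lowest member. It had 4024 reads in si-NC and 2183 in si-BRF2, or 176 and 98.8 CPM. The level fell by 43.9%, a log2 fold change of -0.83 (-0.91 to -0.76), and 1.75% of protein-coding genes with at least 10 reads had a lower value. SRSF9 lies on the minus strand of chromosome 12 (GRCh38, 120461668 to 120469793). An exon of GATC, which had 824 and 785 reads, overlaps it on the opposite strand. The strandedness of the libraries is not given in the sources used here.

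SRSF11, or p54, an SR protein that contacts the splicing factor U2AF2, was the highest member. It had 1975 reads in si-NC and 3461 in si-BRF2, or 86.4 and 157 CPM. This is 81.3% higher, a log2 fold change of 0.86 (0.78 to 0.94), and 86.9% of protein-coding genes had a lower value. It lies on the plus strand of chromosome 1 (GRCh38, 70205682 to 70253052), and no gene with reads overlaps its exons. By total reads the changes of SRSF11 and SRSF9 were of similar size, but with TMM scaling they were 0.63 and -1.06 and by TPM 1.09 and -0.70.

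The other SRSF genes were between these. SRSF7, which couples splicing to mRNA export, had 242 and 194 CPM (-0.32, -0.38 to -0.26). SRSF3, the smallest SR protein and also an export adaptor, had 355 and 304 CPM (-0.22, -0.27 to -0.18). SRSF1, the SR protein first known as SF2/ASF, had 318 and 299 CPM (-0.08, -0.13 to -0.04). All 3 were lower in si-BRF2. SRSF1 shares its strand with the gene model AC015813.2, which had 577 and 1286 reads, so its reads are uncertain. SRSF2 (SC35) had 446 and 432 CPM, and its log2 fold change of -0.04 had an interval that ended just under 0 (-0.08 to -0.0027). SRSF10, which represses splicing when dephosphorylated, had 129 and 160 CPM (0.31, 0.24 to 0.38). SRSF6, a close relative of SRSF4 and SRSF5, had 311 and 353 CPM (0.18, 0.14 to 0.23) and SRSF5 had 147 and 154 CPM (0.07, 0.0037 to 0.14). SRSF4 had 71.4 and 76.4 CPM, within counting error. SRSF8 and SRSF12 were weakly expressed, with 379 and 425 reads (0.21, 0.01 to 0.42) and with 121 and 144 reads (0.30, -0.06 to 0.66). The 8 SR proteins described first (SRSF1 to SRSF7 and SRSF9) had a median of -0.06, and the other 4 had a median of 0.31.

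Levels between genes were compared by TPM. HNRNPA1 stood first in both libraries with TPM of 1929 in si-NC and 1854 in si-BRF2, followed by HNRNPC with TPM of 1038 and 905. SRSF2 was the most abundant SR gene with TPM of 680 and 800, and stood at place 4 in both. HNRNPA2B1 was at place 3 in si-NC (690) and place 5 in si-BRF2 (655), and HNRNPK at places 5 (566) and 6 (625). HNRNPH1 moved from place 6 (480) to place 3 (825). SRSF9 fell from place 16 (233) to place 22 (143), and SRSF11 went from 28 (40.0) to 25 (84.9). SRSF12 was the lowest SRSF gene, with TPM of 2.47 and 3.18, and HNRNPD-DT the lowest member with reads, with 1.59 and 0.81. No spread between replicates is available to say which neighbors in this order differ. By TPM the 27 hnRNP genes together had 8358 and 8549 and the 12 SRSF genes 2124 and 2399. The members took 1.41% of the reads on genes in si-NC and 1.28% in si-BRF2.

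**Figure D2:**
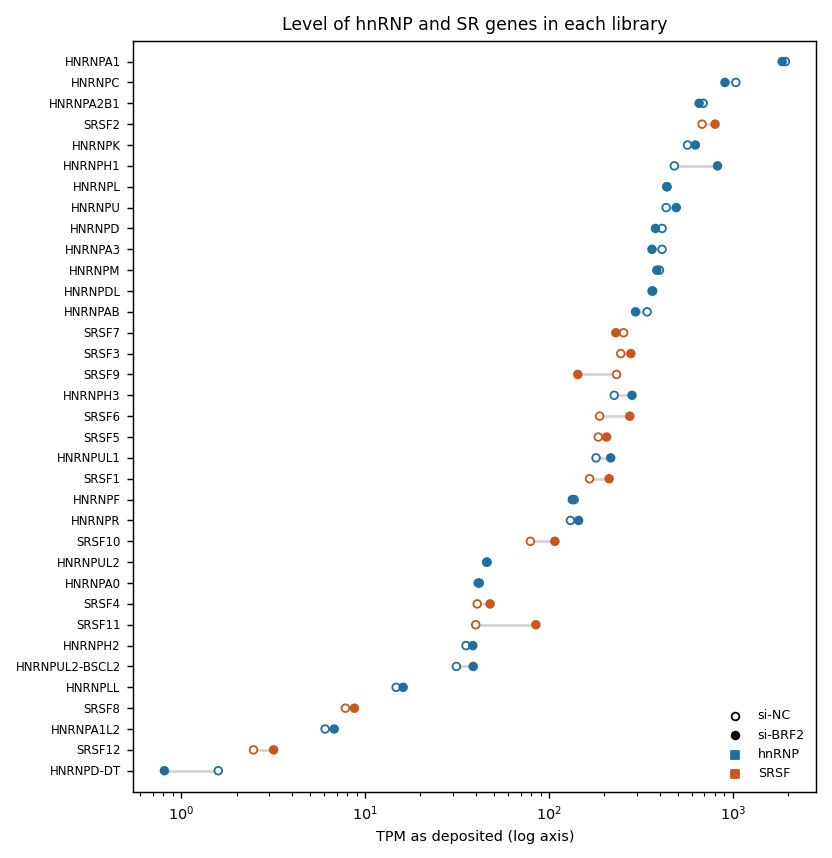
The deposited TPM of each member (x axis, log scale) is shown in si-NC (open points) and si-BRF2 (filled points), hnRNP genes in blue and SRSF genes in orange, ordered by si-NC. The longest lines, for genes above TPM of 10, are those of SRSF11 (40.0 to 84.9), HNRNPH1 (480 to 825) and SRSF9 (233 to 143).

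TPM and CPM did not give the same sign for many members. Over the 35 members with reads, 24 log2 fold changes were below 0 by CPM and 14 by TPM, and the hnRNP median went from -0.19 to -0.01. For HNRNPH1 the log2 ratio of TPM was 0.78, against 0.39 by CPM and 0.17 with TMM scaling. Across all the scalings and centrings used, 3 members had a value above 0 in each (HNRNPH1, SRSF11 and SRSF12), 13 had a value below 0 in each, among them SRSF9, SRSF7, HNRNPC, HNRNPAB and HNRNPA1, and 19 had both signs. SRSF12, and HNRNPD-DT among the 13, did not pass counting error.

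The members were then compared with genes of like length, since a long gene tended to rise in si-BRF2 and a short one to fall. Relative to the median of protein-coding genes in the same of 20 length bins, 27 of the 35 members lay below 0, as did 4430 of the 7291 protein-coding genes with at least 1000 reads, whose median was -0.08. The median was -0.26 for the hnRNP genes, with 21 of 23 below 0, and 0.01 for the SRSF genes, with 6 of 12 below 0. Relative to genes of like implied effective length, the hnRNP median was -0.10, with 17 of 22 below 0. The SRSF median was then 0.13, with 4 of 12 below 0. HNRNPA0, an AU-rich element binder with a gene length of 8713 bases in the table, lay furthest below, at -0.76, followed by HNRNPUL2 (5214 bases) at -0.56. HNRNPU (6867 bases), which was slightly higher by CPM, lay at -0.36, but at 0.06 relative to genes of like implied effective length (the length implied by reads over TPM). SRSF11 stood above its bin by 0.92 and HNRNPH1 by 0.40, and SRSF9 lay at -0.54. SRSF9, HNRNPA0 and HNRNPUL2 thus lay below genes of their length, and SRSF11 and HNRNPH1 above. The HNRNPUL2 value rests on an uncertain split of reads with HNRNPUL2-BSCL2, which lay at -0.039. Across the 35 members the rank correlation (Spearman's rho) of change with length was 0.34 (0.58 over 10607 protein-coding genes), as a description, since all points share the same 2 libraries.

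**Figure D3:**
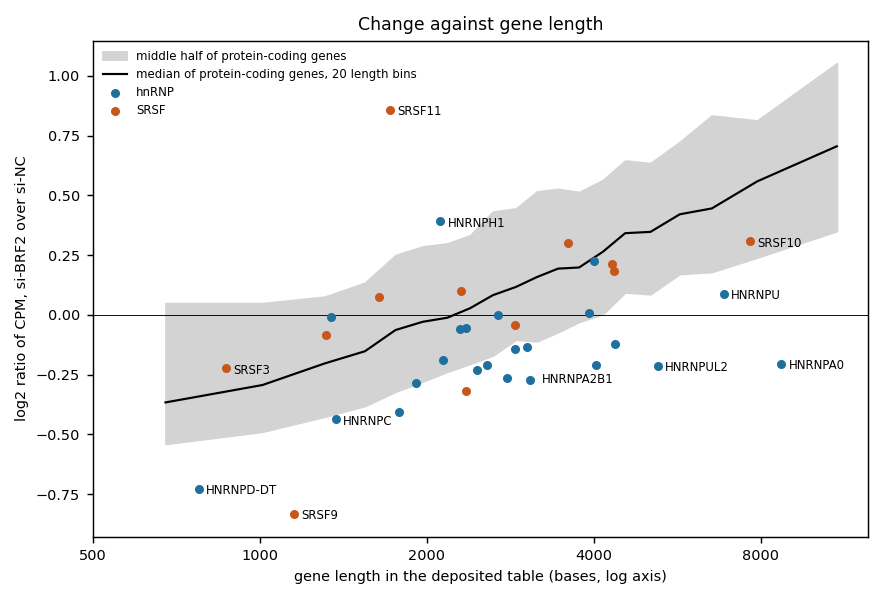
The log2 ratio of CPM (y axis) is plotted against the gene length of the deposited table (x axis, log scale) for the 35 members with reads, over the median and the interquartile range of protein-coding genes in 20 length bins. The bin medians rise from -0.37 to 0.71, and 27 of the 35 members lie under the line, HNRNPA0 furthest among the hnRNP genes.

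Reads divided by TPM give the transcript length that the authors' quantification used for a gene, averaged over its transcripts. This implied effective length was compared between the libraries for 34 members with at least 100 reads and a TPM of at least 1 in each, after centering on the median of 11180 genes. SR genes are known to contain alternative exons whose inclusion introduces a stop codon and directs the mRNA to nonsense-mediated decay (NMD). In GENCODE release 29, all 12 SRSF genes had an annotated NMD transcript. So did 13 of the 21 hnRNP genes of this set that encode hnRNPs, against 45.5% of 10607 protein-coding genes. These hnRNP genes also had more annotated transcripts (median 11, against 8). Counted by transcript, NMD models were 30 of 285 for the hnRNP genes, 25 of 114 for the SRSF genes and 11062 of 103440 for the protein-coding genes. HNRNPA0, HNRNPH2 and HNRNPA1L2, each with 1 annotated transcript, shifted by -0.0015, 0.0047 and 0.01 on the log2 scale, while HNRNPUL2-BSCL2, also with 1, shifted by 0.11. SRSF1 shifted most, by -0.25, from an implied 2384 bases in si-NC to 1998 in si-BRF2, within annotated transcripts of 438 to 3117 bases. SRSF3 shifted by -0.22 (1803 to 1545 bases), HNRNPH1 by -0.20 (1576 to 1368 bases), HNRNPH3 by -0.19 (1372 to 1202 bases) and SRSF6 by -0.18 (2057 to 1819 bases). In these 5 genes the implied length was shorter in si-BRF2. SRSF8 shifted the other way, by 0.24 (2650 to 3120 bases), followed by SRSF12 with 0.12 and SRSF5 with 0.11. SRSF11 and SRSF9 themselves stayed near 0, at -0.04 and 0.05.

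Of the 34 members, 5 were shorter by 0.15 or more (14.7%), a share near the 15.1% of protein-coding genes, and 1 was longer by as much, against 11.6%. SRSF1 lay at percentile 7.0 of all genes and HNRNPH1 at percentile 10.2. The table holds no values per transcript, so the transcripts behind the shifts are not known.

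**Figure D4:**
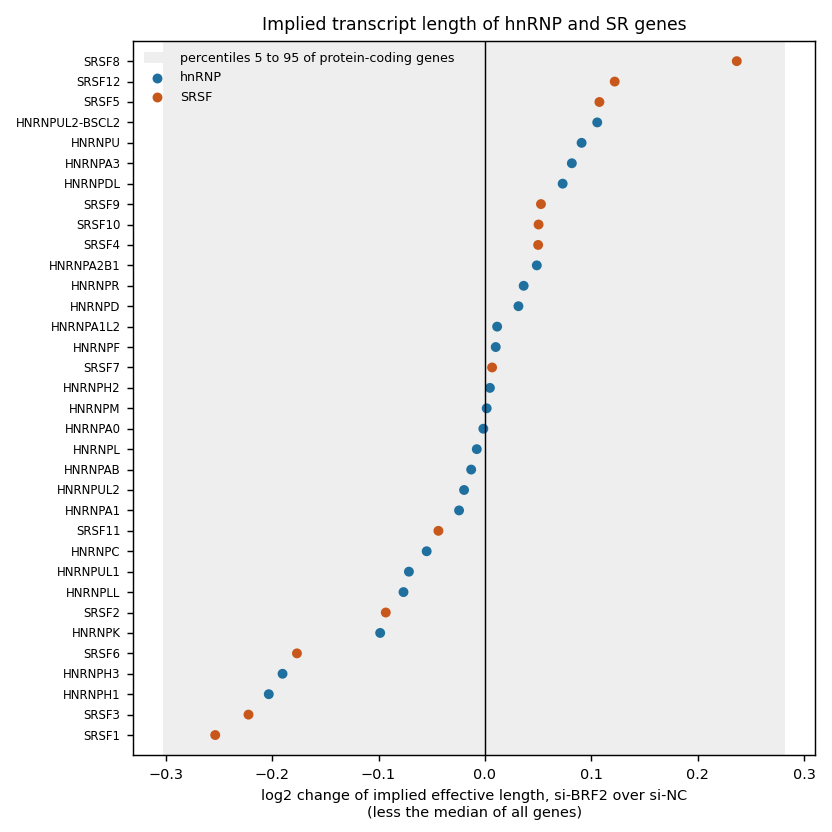
The log2 change of the implied effective length between the libraries (x axis, centered on all genes) is shown for 34 members, hnRNP genes in blue and SRSF genes in orange, over a grey band of percentiles 5 to 95 of protein-coding genes. SRSF1 (-0.25) and SRSF8 (0.24) lie at the ends, all members lie inside the band, and 25 of the 34 lie within 0.1 of 0.

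Other genes of the splicing machinery were counted from lists of known members. The SR-related proteins, which carry arginine and serine repeats without being classical SR proteins, were mostly higher. Of 29 with reads, 23 were higher beyond counting error and 2 lower. Of the protein-coding genes with at least 1000 reads, 44.0% were higher and 36.2% lower. Some listed genes had fewer reads, and of protein-coding genes with any read 36.9% were higher and 20.8% lower. The SR-related median was 0.30, but 0.07 with TMM scaling and, against genes of like length, 0.11. The median gene length of this list was 4178 bases. NKTR, a cyclophilin with an arginine and serine rich tail, was past the fold threshold with 1085 and 2735 reads (1.38, 1.28 to 1.49). Of the 14 kinases, phosphatases and import receptors that act on SR proteins, 9 were higher and 2 lower. The extremes were CLK2, which phosphorylates SR proteins in the nucleus, with 1137 and 2122 reads (0.95, 0.84 to 1.05), and PPP1CA, a catalytic subunit of protein phosphatase 1, with 22344 and 16052 reads (-0.43, -0.46 to -0.40). The median of this list was 0.36, but 0.14 with TMM scaling and, against genes of like length, 0.13. The shares to set beside its counts are the same 44.0% and 36.2%, or 36.9% and 20.8% with any read.

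The hnRNP proteins that carry other names (18 genes with reads, such as the PTB and PCBP proteins) gave 7 higher and 9 lower. Their median of -0.07 was -0.30 with TMM scaling, -0.16 against genes of like length and 0.10 by TPM. PTBP2, the neuronal PTB protein, had 178 and 328 reads (0.93, 0.66 to 1.2), and GRSF1, which acts on mitochondrial RNA, had 2145 and 1453 reads (-0.51, -0.61 to -0.42). The symbol MATR3 stands for 2 rows of the table, both counted. For this list and the Sm and LSm list, the shares to set beside the counts are again 44.0% higher and 36.2% lower. With any read they are 36.9% and 20.8%. The Sm and LSm proteins, which form the rings on the snRNAs, were the lowest list. Of 15 genes, 13 were lower and 0 higher, with a median of -0.54 (-0.77 with TMM scaling and -0.37 by TPM). They were also the shortest, with a median length of 933 bases, and relative to genes of like length their median was -0.35. LSM2 had 1413 and 839 reads (-0.70) and LSM8, which marks the U6 ring, 1041 and 1080 reads (0.10).

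Of the 19 proteins of the U2 snRNP and branch site, 12 were lower and 3 higher, from SF3A3 at -0.48 to SF3B1 at 0.43. Their median of -0.17 was -0.40 with TMM scaling, -0.22 against genes of like length and 0.0007 by TPM. The 3 U1 proteins went from -0.53 (SNRPC) to 0.27 (SNRNP70). The 18 tri-snRNP proteins had 10 lower and 3 higher, from SNU13 (-0.57) to SNRNP200 (0.56). Their median of -0.16 was -0.39 with TMM scaling, -0.22 against genes of like length and 0.13 by TPM. The 22 factors of the catalytic steps had 7 lower and 6 higher, from PRPF18 (-0.88) to AQR (0.40). Their median of 0.01 was -0.21 with TMM scaling, -0.12 against genes of like length and 0.11 by TPM. Of the 15 exon junction and NMD factors, 11 were higher and 4 lower. Their median of 0.20 was -0.02 with TMM scaling, -0.07 against genes of like length and 0.39 by TPM. SMG1, the kinase of the NMD factor UPF1, was past the fold threshold with 1046 and 2250 reads (1.15, 1.05 to 1.26), but had 0.93 with TMM scaling. Other splicing regulators (28 with reads) had 14 higher and 5 lower. They went from KHDRBS3 (-0.28) to RBM5, a regulator of exon choice in apoptosis genes, with 1460 and 2792 reads (0.98, 0.89 to 1.08). Their median of 0.22 was -0.006 with TMM scaling, -0.02 against genes of like length and 0.31 by TPM. The shares to set beside the counts of these lists are the same 44.0% higher and 36.2% lower. With any read they are 36.9% and 20.8%. The hnRNP and SRSF genes thus lay between the Sm and LSm list and the SR-related list in their medians.

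**Figure D5:**
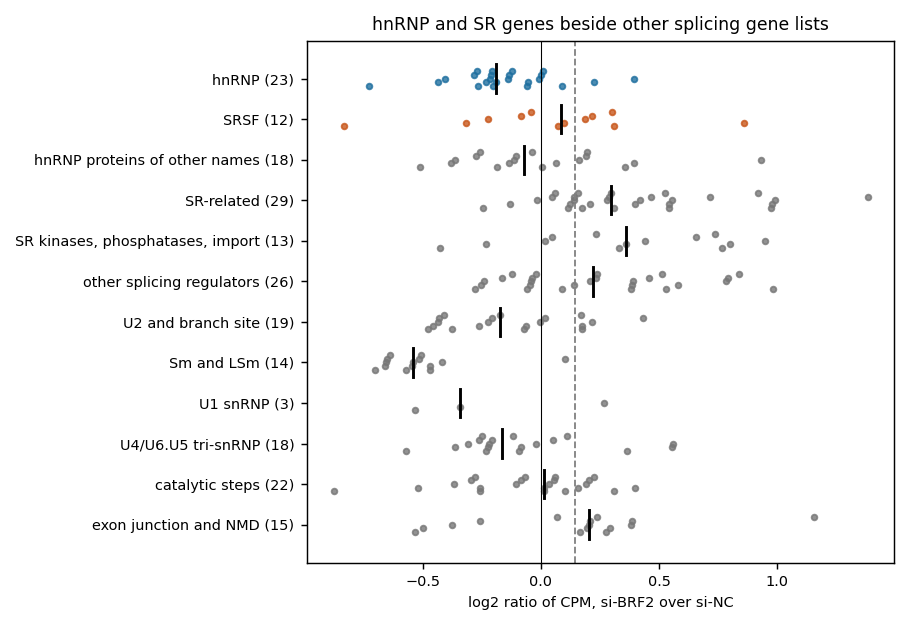
Each point is the log2 ratio of CPM (x axis) of a gene with at least 10 reads, in rows for the hnRNP and SRSF genes and 10 other splicing lists with the number of genes in brackets; the black tick is the median of the row and the dashed line the median of protein-coding genes (0.14). The Sm and LSm row is the lowest (-0.54), and the SR-related (0.30) and SR kinase (0.36) rows are the highest.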

How the data were processed

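RNA-seq was done on 1 library of si-NC and 1 of si-BRF2 Huh7 cells, grouped by sample title. The authors deposited a table with estimated counts and TPM per gene. The submitters' processing notes name Bowtie2 2.0.6, TopHat2 2.0.12 and GRCh37. The counter, the annotation release, the strandedness and how reads that match several genes were treated are not given in the sources used here. The table also holds the authors' own fold, log2 ratio, p-value and adjusted p columns, which were not used.

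Reads were scaled to the total on genes (22852648 and 22089016). Log2 ratios of CPM were given a 95% Clopper-Pearson interval on reads rounded to whole numbers. A change was called at a fold of 2 or more with an interval excluding 0. With 1 library per condition no p-value was computed for the conditions. Depth sets the precision: a count of 0 allows 3 reads. Gene types, transcripts and GRCh38 coordinates came from GENCODE release 29, in which 94.8% of the IDs and all 39 members were found by gene ID. Implied effective length was reads divided by TPM, scaled within each library so that its median ratio to length was 1 over 362 coding genes with 1 transcript and at least 2000 bases. In si-NC it was between 0.697 and 1.07 times the length of these genes at percentiles 5 and 95. Shifts between libraries were taken from the unscaled values and centered on their median over all genes used, -0.23.

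All members with reads could be named. In other lists, genes past the fold of 2 were named or, where none was, the highest and the lowest with at least 100 reads. The members and lists were chosen with earlier results of these data known. The grouping of members by role, the mark of 0.15 for length shifts and the set with at least 1000 reads were chosen after values were seen. Alternatives were edgeR TMM, DESeq2 median of ratios and upper quartile scaling, a total without the 100 top genes, the TPM columns, centering on genes of like length, 0.5 reads added, at least 10 reads in each library, a fold of 1.5, and the exact test of edgeR at a biological coefficient of variation set to 0.1 or 0.4. The intervals were tested on simulated data. Protein sequences were not analysed here. Python 3.11.15, NumPy 2.4.6, pandas 2.3.3, SciPy 1.17.1, matplotlib 3.10.9, R 4.3.3, edgeR 4.0.16 and DESeq2 1.42.0 were used.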

Additional observations from a re-analysis of the deposited data

How the results depend on the processing

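With 1 library per condition, no library could be left out, and depth limits HNRNPD-DT, HNRNPA1L2 and SRSF12. No paired analysis was possible because each condition has 1 library and the labels carry no replicate numbers. The hnRNP median of -0.19 was -0.41 with edgeR TMM, -0.40 with DESeq2 median of ratios, -0.38 with the upper quartile, -0.26 relative to genes of like length, -0.10 relative to genes of like implied effective length (chosen after seeing the data) and -0.0097 by TPM. The SRSF median of 0.09 was, in the same order, -0.14, -0.12, -0.10, 0.0099 and 0.13, and 0.23 by TPM. The 8 members higher beyond counting error became 3 with each of TMM, median of ratios and upper quartile, and 5 relative to genes of like length. The shares of all genes under these settings are not given here. The edgeR exact test rests on an assumed coefficient of variation, as 1 library per condition gives no spread. Called at an unadjusted p under 0.05 with 0.1 assumed were SRSF11 (log2 fold change 0.86), SRSF9 (-0.83), HNRNPC (-0.44) and HNRNPAB (-0.41). With 0.4 assumed, none of these was called. The share of all genes called by this test is not given here, so these calls have no background. Past a fold of 2, the 0 higher became 1 (SRSF11) by TPM, and the 0 lower became 1 (SRSF9) with each of TMM, median of ratios and upper quartile, while a fold of 1.5 gave 1 higher and 1 lower, the same 2 genes. Without the divergent transcript and the readthrough gene, also chosen after seeing the data, 7 members were higher and 18 lower.

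The sign turned for 12 single members whose interval excluded 0. With TMM, median of ratios and upper quartile, HNRNPU became -0.14, -0.12 and -0.098, SRSF5 -0.15, -0.13 and -0.11, and SRSF6 -0.040, -0.023 and -0.0020, and SRSF8 became -0.010 with TMM. Relative to genes of like length, HNRNPU became -0.36, HNRNPUL2-BSCL2 -0.039, SRSF10 -0.25, SRSF6 -0.16, SRSF8 -0.050, SRSF1 0.12 and SRSF3 0.0696. Relative to like implied effective length, HNRNPDL became 0.0695, HNRNPUL2-BSCL2 -0.11 and SRSF2 0.29. By TPM, HNRNPK became 0.14, HNRNPL 0.0029, SRSF1 0.35, SRSF2 0.23 and SRSF3 0.18. The cause was not tested. Adding 0.5 reads to each library turned no sign.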

Other observations

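Left out of the members were 124 rows for pseudogenes and antisense genes named after hnRNP genes. Of these, 41 had reads, 330 in si-NC and 314 in si-BRF2 in all, or 0.102% of the members' reads in si-NC. The 75 rows named after HNRNPA1 held 240 and 212 reads, or 0.524% of the HNRNPA1 reads in si-NC. The 9 rows named after HNRNPC held 45.0 and 75.1 reads, while HNRNPC itself was lower in si-BRF2.

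The 23 spliceosomal snRNA genes listed, whose RNAs the splicing proteins work with, summed to 5.82 estimated reads in si-NC and 11.98 in si-BRF2. No level of an snRNA, U6 included, could be compared in these libraries. Why these genes had so few reads was not tested.

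The implied effective length was under 50% of the gene length in the table for 7 of 33 members that encode hnRNPs or SR proteins (21.2%), against 11.3% of protein-coding genes. SRSF2 had 817 of 2885 bases in si-NC and SRSF10 had 2031 of 7656 bases.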
